A study of Mus musculus with 84 samples.

Results

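Immediate early genes are transcribed within minutes of a stimulus, without the need for new protein, and enzymatic dissociation of brain tissue is known to switch many of them on in the cells being isolated. Here 10 such genes were followed through RNA-seq of sorted mouse astrocytes: the AP-1 subunits Fos, Fosb, Jun and Junb, the stress-induced factor Atf3, the zinc finger factor Egr1, the orphan nuclear receptor Nr4a1, the early response gene Ier2, the MAP kinase phosphatase Dusp1 and the inducible heat shock protein gene Hspa1a. They were chosen by name, as early response and dissociation stress genes. All 10 were found among the 48526 genes of the EAE table and among the 25773 genes of the subtype table.

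The subtype experiment held 15 libraries of wildtype FVB/N mice, 3 for each of 5 acutely isolated populations (forebrain GLAST-negative and GLAST-positive, hindbrain GLAST-negative and GLAST-positive, spinal cord GLAST-negative), and 3 libraries of astrocytes cultured from the cerebrum of newborn C57BL/6 mice. The EAE experiment held 66 libraries of female C57BL/6 mice, 10 weeks old at immunization, in 12 groups: hindbrain GLAST-negative, hindbrain GLAST-positive and spinal cord GLAST-negative astrocytes of unimmunized controls (C, 5 libraries per population) and of mice given MOG35-55 peptide in complete adjuvant (CFA) plus pertussis toxin, taken at clinical score 1 (E1, limp tail; 6, 6 and 5 libraries), at score 4 (E4, hind leg paralysis; 6, 6 and 6 libraries) or in the chronic stage (Ech; 6, 4 and 6 libraries). EAE, experimental autoimmune encephalomyelitis, is a mouse model of multiple sclerosis, and controls were not immunized. Tissue was digested with trypsin at body temperature, freed of myelin on Percoll and sorted for CD11B-negative, CD45-negative, ACSA-2-positive cells, GLAST being the transporter encoded by Slc1a3 and ACSA-2 the antigen encoded by Atp1b2. RNA of up to 2 mice was pooled per library. The cultured cells differed from the isolated ones in strain, age and region as well as in culture, were grown with medium conditioned by L929 cells and were lysed in TRIzol, so that these differences cannot be told apart.

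FOS and JUN proteins pair through leucine zippers and bind AP-1 sites, and JUN also pairs with ATF3. Their genes are switched on by MAP kinases acting through SRF with its partner ELK1, and through CREB bound to cAMP response elements (CRE). DUSP1 dephosphorylates those kinases and so limits the response, NR4A1 and EGR1 are themselves short-lived transcription factors, and Hspa1a is driven by HSF1 at heat shock elements when proteins misfold. In astrocytes, FOS, JUN and EGR1 are known to respond to injury, cytokines and serum.

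Promoters are shown for 4 AP-1 pathway members on which the results turn, Fos, Junb, Atf3 and Jun, as the 250 bases ahead of the RefSeq start (GRCm38.p6), 5′ to 3′ on the strand of the gene, with the short CRE core TGACG, or CGTCA where it lies on the other strand, in capitals.
Fos, chr12:85473640-85473889, plus strand: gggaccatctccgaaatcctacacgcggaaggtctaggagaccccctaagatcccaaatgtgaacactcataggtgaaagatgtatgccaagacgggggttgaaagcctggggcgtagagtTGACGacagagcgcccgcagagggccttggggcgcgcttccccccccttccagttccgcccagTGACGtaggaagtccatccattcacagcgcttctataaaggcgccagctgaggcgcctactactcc
Junb, chr8:84978749-84978998, minus strand: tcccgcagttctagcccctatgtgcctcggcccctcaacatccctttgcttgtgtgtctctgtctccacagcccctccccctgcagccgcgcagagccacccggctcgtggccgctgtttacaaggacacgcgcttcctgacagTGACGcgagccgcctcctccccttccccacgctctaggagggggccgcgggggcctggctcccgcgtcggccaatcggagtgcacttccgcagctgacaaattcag
Atf3, chr1:191183334-191183583, minus strand: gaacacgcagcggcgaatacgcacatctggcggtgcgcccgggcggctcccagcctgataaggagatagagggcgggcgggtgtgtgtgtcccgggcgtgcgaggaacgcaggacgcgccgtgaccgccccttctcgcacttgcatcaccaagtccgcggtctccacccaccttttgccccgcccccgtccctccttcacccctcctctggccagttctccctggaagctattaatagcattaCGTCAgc
Jun, chr4:95052223-95052472, minus strand: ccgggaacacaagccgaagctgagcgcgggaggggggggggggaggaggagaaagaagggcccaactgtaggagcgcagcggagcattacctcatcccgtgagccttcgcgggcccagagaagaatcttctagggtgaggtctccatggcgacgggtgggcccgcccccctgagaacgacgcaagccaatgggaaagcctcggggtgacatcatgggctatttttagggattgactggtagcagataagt
Promoters of 8 members were searched, and those of Ier2 and Egr1 were not. The short CRE core, searched on both strands, was present in 6 of the 8 (Fos, Fosb, Junb, Atf3, Dusp1 and Nr4a1). It was present in 17.8% of 32851 promoters of the same length. In Fos it began 129 and 66 bases ahead of the start, in Junb 106 bases, and in Atf3 7 bases. The whole palindrome TGACGTCA, which contains the short core on each strand, was present in Dusp1 alone of the 8 and in 1.55% of all promoters. The heat shock letters GAANNTTC were found in Jun and Hspa1a, and in 6.69% of all promoters. TATAAA, on the gene's strand, was found in Fos and in 7.59% of all promoters, whereas the AP-1 site TGANTCA (6.75% of all promoters) and the CArG box bound by SRF (1.47%) were in none of these 8 windows. These matches describe letters in a fixed window only.

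Values are given as CPM, the counts of a gene per 1000000 counts of its library. Acutely isolated FVB/N libraries held 416768 to 1269316 counts, cultured libraries 2183464 to 8188074 and EAE libraries 1313682 to 4895220. A floor of 3 counts corresponded to 2.36 to 7.20 CPM in the isolated FVB/N libraries and 0.613 to 2.28 CPM in the EAE libraries, and lower values cannot be told from 0. Above the floor, 1 member (Jun) was detected in every EAE library, 2 members in every isolated FVB/N library, and all 10 in every cultured library; 518 of 660 EAE values and 99 of 150 isolated FVB/N values lay above it. These are bulk libraries, in which more RNA per cell and more cells that hold the RNA cannot be told apart. QuantSeq reads come from the 3′ end of a transcript, so CPM of different members are not compared per length here. Junb overlaps the end of Prdx2 on the other strand and Dusp1 overlaps Ergic1, and whether counting used strand is not stated, so their counts carry that uncertainty; Prdx2 means lay between 143 and 235 CPM in the 12 EAE groups and Junb means between 5.00 and 99.4 CPM. Hspa1a and its neighbour Hspa1b have promoters identical at 247 of 250 bases and near-identical transcripts, so reads may be split between them.

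Names and libraries were checked before the results. For 12 of the 15 isolated FVB/N libraries, the group in the sample labels was not the group of the same values in the study's supplementary table. The cord-specific Hox genes Hoxa7, Hoxa9, Hoxc6, Hoxc8 and Hoxc9 summed to 455 ± 45.8 CPM (SD, n = 3) in the libraries labelled hindbrain GLAST-negative, and all 5 were at 0 in the libraries labelled spinal cord. Slc1a3, the gene of GLAST, averaged 10454 CPM in the libraries labelled spinal cord GLAST-negative and 5907 CPM in those labelled hindbrain GLAST-positive. Its means were 4758 CPM in forebrain GLAST-negative, 1976 CPM in forebrain GLAST-positive and 778 CPM in hindbrain GLAST-negative libraries, by label. As the sources differ, populations of this experiment are given by their labels, as "labelled" or "by label". The supplementary table names the group labelled hindbrain GLAST-negative as spinal cord, and the group labelled forebrain GLAST-positive as hindbrain GLAST-negative. It names the group labelled hindbrain GLAST-positive as forebrain GLAST-positive, and the group labelled spinal cord as hindbrain GLAST-positive. Forebrain GLAST-negative bears the same name in both. The Hox and Slc1a3 values go with the names in the supplementary table rather than with the labels. The comparison of cultured with isolated cells and the test for any difference among populations do not depend on the names. In the EAE experiment, the same Hox sum was 288 to 483 CPM in control spinal cord and at most 11 CPM in any hindbrain library. One E1 spinal cord library (replicate 1) is called hindbrain in other fields; its Hox sum was 179 CPM and its title was followed. Sample-sheet numbers in the labels fell into a low range (56 or lower) and a high range (57 or higher). All GLAST-negative hindbrain libraries were in the low range, and all GLAST-positive hindbrain and control spinal cord libraries in the high one. Each hindbrain stage was thus compared with controls of its own range, whereas 5 of 6 spinal cord libraries at E4, 1 of 5 at E1 and 2 of 6 at Ech were in the other range than their controls. The titles also carry numbers of which none appears in more than 1 stage or in 2 libraries of a group, while 64 of the 66 EAE libraries share 1 with a library of another population. What they mark is not stated; if they mark mice, populations of a stage hold the same mice, and the comparisons between populations were therefore refitted with libraries linked by a number as a block, and each stage comparison on the libraries of its population alone. All p-values measure the spread between these libraries.

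Egr1 set cultured astrocytes most clearly apart from isolated ones. Its level was 80.4, 110 and 92.5 CPM in the cultured libraries and 0 to 27.0 CPM in the 15 isolated ones. No isolated library overlapped the cultured range. The log2 fold change against the mean of the 5 isolated populations was 3.46 (SE 0.41, adjusted p = 3.16e-09, edgeR quasi-likelihood test with Benjamini-Hochberg adjustment), and Egr1 was called, without overlap, against each population separately, by 2.43 to 4.45 (log2), beside 17.3% to 21.1% of all genes called in these 5 comparisons. Called means here an adjusted p under 0.05 together with a log2 fold change above 1 or below -1. By this rule 5 of 10 members were called, 4 higher and 1 lower in culture, beside 31.7% of all 17126 genes tested. The members' median log2 difference was 1.00, beside 0.43 over all genes tested; as a ratio of mean CPM held at the floor it was 0.89, beside -0.28 over all genes.

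Atf3, which is known to be induced by many kinds of stress, was measured at 8.35, 9.60 and 7.21 CPM in the cultured libraries. It was at 0 in all 9 libraries labelled forebrain GLAST-negative, hindbrain GLAST-negative and spinal cord, against which culture was at least 2.67-fold, 1.73-fold and 2.54-fold higher when the mean floor of the group stands for 0. Of the other 6 isolated libraries, 4 held Atf3, at 0.815 to 11.7 CPM, the highest in replicate 1 labelled forebrain GLAST-positive, above all 3 cultured values. The adjusted p against the isolated mean was 0.000314.

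Jun and Hspa1a were called with less margin. Jun was at 210, 212 and 160 CPM in culture and 17.5 to 173 CPM in isolated libraries, a log2 fold change of 1.02 (SE 0.22, adjusted p = 0.000325). The groups overlapped at the lowest cultured library. With DESeq2 size factors the fold was 0.90, and without cultured replicate 1 or 2 it was 0.92, so that Jun was not called in these settings. Hspa1a reached 32.6, 23.5 and 16.2 CPM in culture against 0 to 23.6 CPM in isolated cells (log2 fold change 1.87, SE 0.71, adjusted p = 0.0356), and was likewise not called with those size factors or without cultured replicate 1 or 2. Hspa1b, from which its reads are hard to separate, averaged 7.26 ± 3.6 CPM in culture and 2.16 to 11.3 CPM in the isolated populations.

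Nr4a1 was the member that fell in culture. The cultured libraries held 3.18, 5.71 and 5.81 CPM, and the isolated populations averaged 29.5 CPM. Hindbrain GLAST-positive libraries, by label, held 118, 41.6 and 48 CPM, and forebrain GLAST-negative, the group whose name is the same in both sources, held 28.4, 34.2 and 46.6 CPM. Those labelled hindbrain GLAST-negative (9.41, 0 and 2.35 CPM) and forebrain GLAST-positive (15.2, 9.38 and 2.16 CPM) overlapped culture. Against the mean, Nr4a1 was lower by a log2 fold change of -1.96 (SE 0.58, adjusted p = 0.00646), and without replicate 1 labelled hindbrain GLAST-negative it was -1.53 and no longer called.

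The other 5 members did not pass the test between cultured and isolated cells. Fos, a gene commonly read as a sign of dissociation, was at 13.9, 29.5 and 20.0 CPM in culture and averaged 22.9 CPM over the isolated populations (log2 fold change 0.37, SE 0.48, adjusted p = 0.605). Isolated libraries reached from 0 to 90.6 CPM and so lay on both sides of the cultured ones. Junb differed by 0.98 (SE 0.47, adjusted p = 0.098) and was called without replicate 3 labelled hindbrain GLAST-negative, at 1.26. Ier2 differed by 1.52 (SE 0.73, adjusted p = 0.10), with 10.7, 14.6 and 12 CPM in culture and a single isolated library, replicate 3 labelled spinal cord, above them at 48.3 CPM; without that library Ier2 was called, at 1.88. Dusp1 differed by 0.64 (SE 0.37, adjusted p = 0.183), and Fosb stayed at or under 5.86 CPM throughout.

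**Figure D1:**
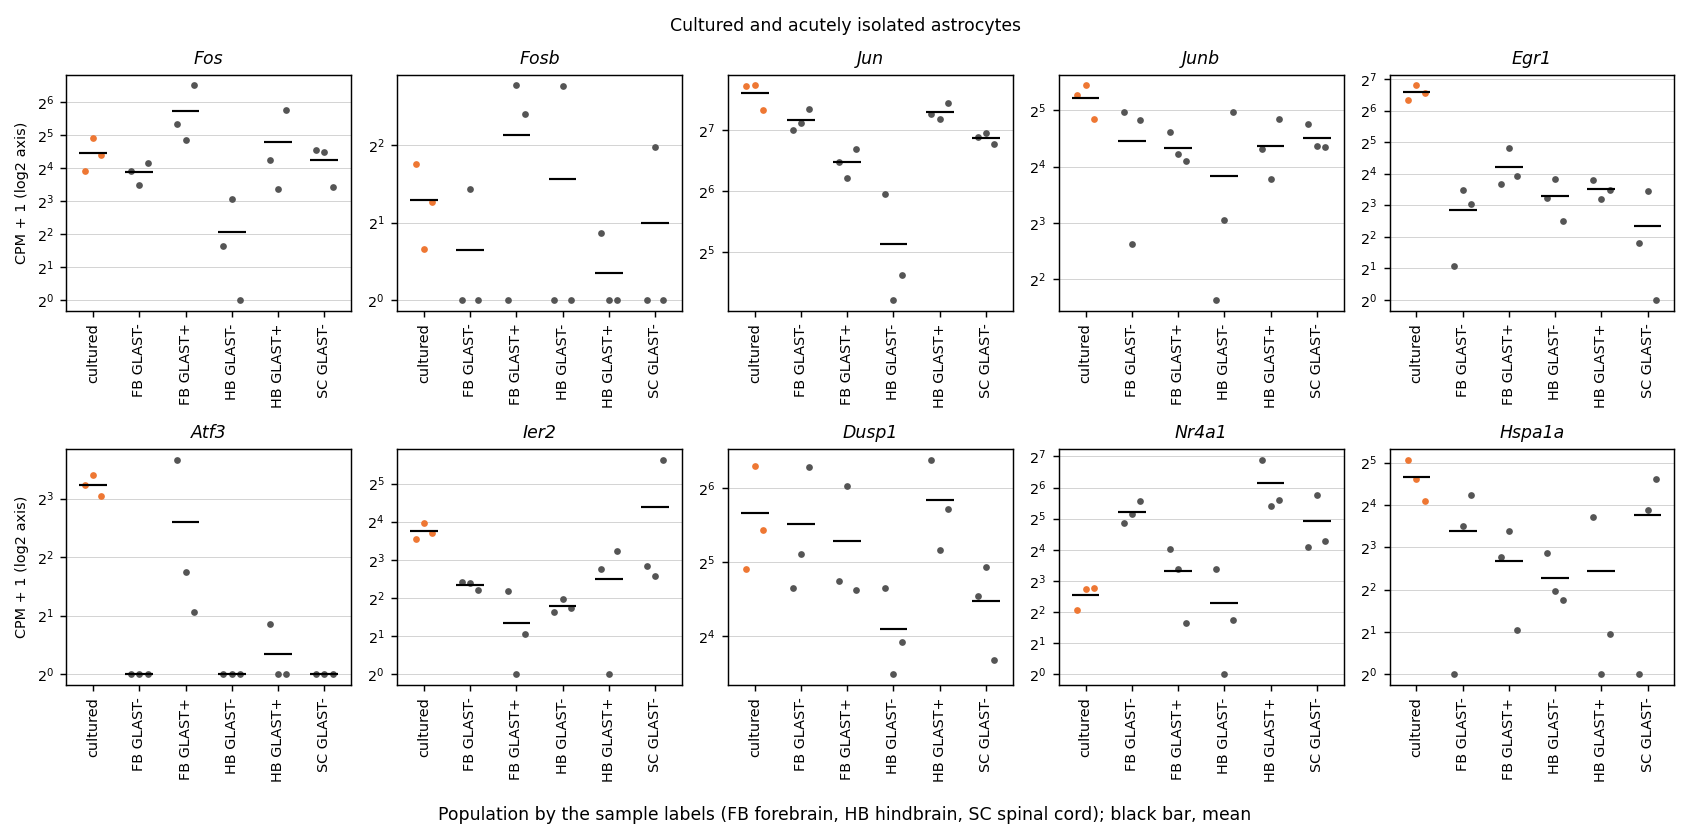
CPM of the 10 genes (log-scaled vertical axis, CPM + 1) in each of the 18 libraries of the subtype experiment, with points for libraries and bars for group means. Isolated groups bear the names of the sample labels, which for 12 of the 15 isolated libraries differ from those in the supplementary table. The cord Hox genes and Slc1a3 followed the names in the supplementary table. Egr1 lay above all isolated libraries in culture, at 80.4 to 110 CPM, and Fos at 13.9 to 29.5 CPM lay inside the isolated range of 0 to 90.6 CPM.

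Markers of other cells differed between the same libraries. Summed over 15 myeloid markers, the cultured libraries held 830, 478 and 3681 CPM and the isolated ones 17.5 to 303 CPM; Ptprc, which encodes CD45, was at 0 in all libraries of 4 of the 5 isolated groups. Summed over 10 astrocyte markers, culture held 5552 to 6127 CPM and the isolated populations 24488 to 30530 CPM on average. Ependymal marker sums averaged 1056 CPM in culture and 67.6 to 536 CPM in the isolated populations, oligodendrocyte sums 496 against 1836 to 13889 CPM, and OPC sums 54.6 against 193 to 1627 CPM. The part of these differences in the result was not tested. Among cultured libraries Egr1 was at 92.5 CPM in that of the highest myeloid sum and 110 CPM in that of the lowest.

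Of related genes, more were called higher than lower in culture, as was also so over all genes. Of the other AP-1 genes, 5 of 8 tested were called higher and none lower, with Fosl2 (log2 fold change 4.66) and Jund (2.16) largest among those of at least 5 CPM. Of the remaining EGR and NR4A genes 2 of 5 were called higher, among them Nr4a3 (2.56), the paralog of Nr4a1. Further early response genes gave 10 higher and 1 lower of 28, Ccn2 (6.91) and Ccn1 (2.22), both targets of SRF, being higher and Btg1 (-3.20), an antiproliferative gene, lower. Heat shock genes gave 10 higher and 0 lower of 21, led by Hspa8 (6.51), a constitutive HSP70, and Hspb8 (5.45). Dual-specificity phosphatases gave 3 higher, Dusp14 (3.72) and Dusp16 (1.48) among them, and 1 lower of 8, Dusp6 (-1.0), the phosphatase of ERK. Upstream regulators gave 7 higher and 0 lower of 19, among them Elk3 (3.18), Rps6ka1 (2.85) and Srf (2.23). These shares stand beside 23.3% of all genes called higher and 8.38% called lower. Median ratios of mean CPM at or above the floor ran from 0.05 for other AP-1 genes to 0.62 for heat shock genes, beside -0.28 over all genes.

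Among the isolated populations 3 members differed by the F test over 5 groups, Fos, Jun and Nr4a1, beside 9.84% of 14957 genes tested. Jun had the narrowest spread within groups. By label, it was at 152, 143 and 173 CPM in hindbrain GLAST-positive libraries, 127, 138 and 161 CPM in forebrain GLAST-negative, 117, 123 and 107 CPM in spinal cord, 87.6, 72.7 and 102 CPM in forebrain GLAST-positive, and 60.7, 17.5 and 23.5 CPM in hindbrain GLAST-negative libraries. The lowest of these groups, named spinal cord in the supplementary table, overlapped none of the others, and the fitted range was 2.14 (log2, adjusted p = 2.98e-05).

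Fos followed another order. It was highest in the libraries labelled forebrain GLAST-positive, at 39.7, 28.1 and 90.6 CPM. The libraries labelled hindbrain GLAST-positive held 17.9, 9.25 and 53.6 CPM, overlapping those labelled spinal cord at 22.3, 21.7 and 9.67 CPM and forebrain GLAST-negative at 14.2, 10.3 and 16.7 CPM. It was lowest where Jun was lowest, with 2.09, 7.30 and 0 CPM, by label hindbrain GLAST-negative and in the supplementary table spinal cord. The fitted range was 3.92 (adjusted p = 0.0032), and Fos was no longer called without replicate 3 labelled forebrain GLAST-positive, when the range was 3.27. For Nr4a1 the range was 3.93 (adjusted p = 3.44e-05).

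With each population set against the mean of the other 4 by its label, the group labelled hindbrain GLAST-negative and named spinal cord in the supplementary table stood lower in 3 of 10 members (4.41% of all genes were called there): Fos by -2.80 (SE 0.77, adjusted p = 0.013), Jun by -1.78 (SE 0.32, adjusted p = 1.92e-05) and Nr4a1 by -2.64 (SE 0.67, adjusted p = 0.0064). That group held the cord Hox genes and the most oligodendrocyte marker RNA of the isolated populations, 13889 CPM summed over 10 genes against 1836 to 5127 CPM. The group labelled forebrain GLAST-positive, named hindbrain GLAST-negative in the table, was higher for Fos (2.10, SE 0.50, adjusted p = 0.0065) and Atf3 (adjusted p = 0.048), beside 1.94% of all genes. The group labelled hindbrain GLAST-positive, forebrain GLAST-positive in the table, was higher for Nr4a1 (2.28, SE 0.44, adjusted p = 0.000153), beside 2.49%. The group labelled spinal cord, hindbrain GLAST-positive in the table, was higher for Ier2 (2.67, SE 0.90, adjusted p = 0.0429), beside 7.54%, where 1 library of 3 held 48.3 CPM and the others 6.20 and 4.92 CPM. Forebrain GLAST-negative astrocytes had 0 members called, beside 1.18%; the other lists there gave 2 called genes, both early response genes.

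In unimmunized C57BL/6 mice Fos was at 0 to 9.08 CPM and Junb at 1.12 to 14.7 CPM over all 15 control libraries, and Jun was the member with the highest counts. Jun was at 68.8, 89.3, 40.6, 63.4 and 51.1 CPM in control GLAST-negative hindbrain and at 185, 150, 136, 123 and 93.5 CPM in GLAST-positive hindbrain. The groups did not overlap, and Jun was higher in GLAST-positive cells by a log2 fold change of 1.13 (SE 0.26, adjusted p = 0.00122), the only member called beside 10.5% of all 23324 genes. Nr4a1 (1.93, adjusted p = 0.115) and Dusp1 (1.10, adjusted p = 0.152) did not pass. The members' median was 0.83, beside -0.11 over all genes, and of the heat shock genes 8 of 21 were called higher and 1 lower, Hsp90aa1 (1.63), Dnaja1 (1.56) and Hspd1 (1.46) among the former. Other early response genes went mostly the other way, with 1 of 28 called higher, Ier3 (3.10), and 7 lower, Trib1 (-3.24) and Zfp36l2 (-2.67) among them. Over all genes 3.4% were called higher and 7.06% lower. Control spinal cord, at 82.3, 202, 108, 191 and 97.3 CPM, was also above GLAST-negative hindbrain in Jun (1.12, SE 0.26, adjusted p = 0.00277), again the only member called, beside 4.20% of all genes, with overlap of the groups. In cord 1 of 28 other early response genes was called higher and 4 lower, and 3 of 21 heat shock genes higher and 2 lower. These stand beside 2.62% of all genes called higher and 1.58% lower. Sample-sheet range and population coincide in the hindbrain comparison and cannot be told apart. For cord, where the EAE groups hold both ranges, Jun was 1.38 with a term for the range (adjusted p = 0.0132) and still called. With the title numbers as a block it was 0.92 (adjusted p = 0.03) and not called, whereas the GLAST-positive comparison kept its call, at 1.29. Without spinal cord control replicate 2 or 4, or GLAST-negative hindbrain control replicate 3, Jun was not called in the comparison with cord. By the names in the supplementary table, the FVB/N libraries went the other way. There Jun averaged 33.9 CPM in spinal cord and 87.6 CPM in GLAST-negative hindbrain.

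Junb was higher in EAE than in controls in all 3 populations. Over the 9 comparisons of a stage with the controls of its population, Junb was called in 8, Fos in 4, Jun and Atf3 in 3 each, Egr1 in 2, and Fosb, Ier2, Dusp1, Nr4a1 and Hspa1a in 0, always as higher. With each population fitted alone, Junb was called in the same 8, Fos in 5 and Egr1 in 4, with the added calls in GLAST-negative hindbrain, and the other counts stayed as they were. The 3 stages of a population share their controls. Of the 5 genes with 0 calls, Hspa1a was measured at means of 2.24 to 8.89 CPM, Ier2 at 1.51 to 7.86 CPM and Fosb at 0 to 4.11 CPM in the 12 groups, so that small changes were not detectable at this depth.

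**Figure D2:**
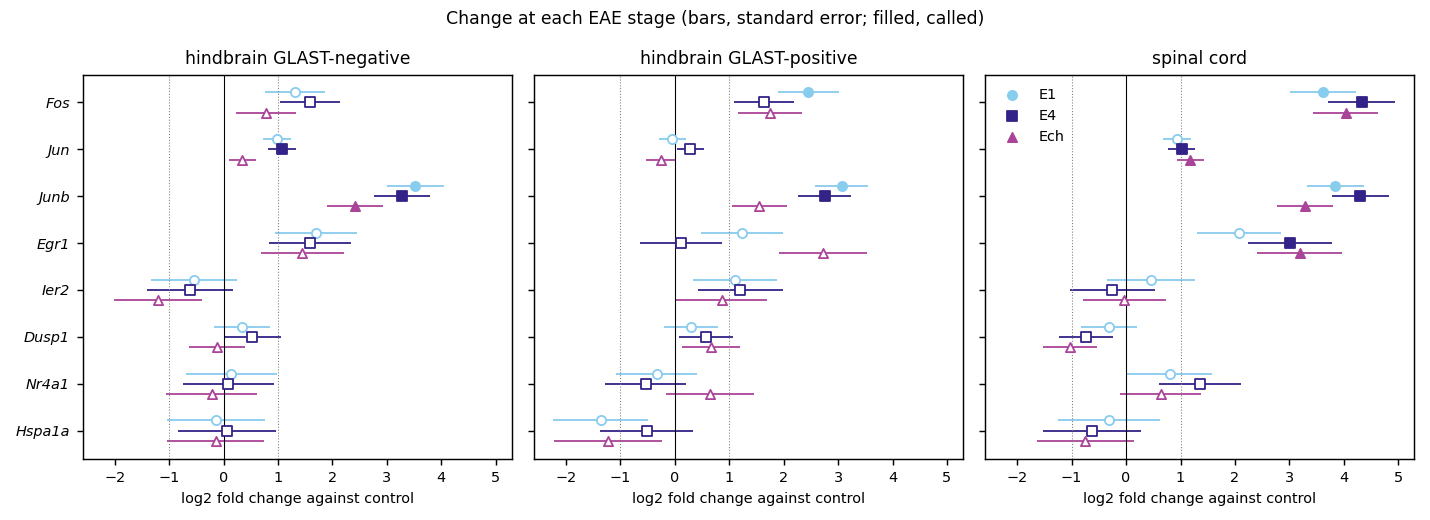
Log2 fold change of the early response and stress genes other than Fosb and Atf3, at E1, E4 and Ech against unimmunized controls, by population. Bars show 1 SE, and points are filled where the gene was called. Junb was called in 8 of the 9 comparisons and Fos in all 3 of spinal cord. Atf3, called in all 3 of spinal cord, and Fosb are not drawn. Fitted log2 fold changes of Atf3 against controls at 0 depend on the prior count of the fit.

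In GLAST-negative hindbrain astrocytes Junb was at 8.50, 3.22, 8.66, 4.85 and 1.12 CPM in controls. At E1 the lowest of 6 libraries was 43.1, the median 53.3 and the highest 104 CPM; at E4 these were 32.5, 50.9 and 74.6 CPM, and at Ech 10.5, 23.2 and 64.6 CPM. No library of any stage overlapped the controls. The log2 fold changes were 3.52 at E1 (SE 0.52, adjusted p = 4.33e-06; 0.643% of all genes called), 3.28 at E4 (SE 0.52, adjusted p = 1.25e-05; 0.729%) and 2.41 at Ech (SE 0.51, adjusted p = 0.0129; 0.193%). The call at Ech was lost without control replicate 2, 4 or 5 or without Ech replicate 3, at 1.99 to 2.38.

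Jun in the same cells rose from a control mean of 62.6 ± 18.5 CPM (SD, n = 5) to a lowest, median and highest of 84.6, 140 and 153 CPM at E4, a log2 fold change of 1.07 (SE 0.25, adjusted p = 0.0137). One E4 library, replicate 1, lay inside the control range. Without control replicate 3 or 5 Jun at E4 was not called (0.95 and 1.01). At E1 the lowest, median and highest were 83.8, 114 and 206 CPM, and the fold of 0.98 missed the limit (adjusted p = 0.0396). Fos averaged 5.83 CPM in controls and 14.7, 18 and 10.2 CPM at E1, E4 and Ech; its log2 differences of 1.31 and 1.59 at E1 and E4 did not pass (adjusted p = 0.473 and 0.329), but did when these libraries were fitted alone (1.31, adjusted p = 0.045, and 1.59, adjusted p = 0.00844). Egr1 likewise averaged 3.92 CPM in controls and 12.6, 11.7 and 10.6 CPM at the stages, with no call, although its E1 and E4 libraries, at 8.14 to 21.8 CPM, did not overlap the controls at 1.12 to 6.66 CPM; fitted alone, Egr1 was called at E1 (1.71, adjusted p = 0.00943) and E4 (1.60, adjusted p = 0.0183). The members' median log2 difference was 1.15, 1.33 and 0.56 at E1, E4 and Ech, beside 0.00 over all genes.

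In GLAST-positive hindbrain astrocytes Junb rose from 6.13, 4.55, 11.7, 1.27 and 14.7 CPM to a lowest, median and highest of 22.8, 60 and 107 CPM at E1 and 46.2, 48.6 and 73.9 CPM at E4. Neither stage overlapped the controls. Its log2 fold changes were 3.06 (SE 0.49, adjusted p = 1.87e-05) and 2.75 (SE 0.48, adjusted p = 9.3e-05), beside 1.49% and 2.03% of all genes. Fos was at 0, 0.758, 4.57, 2.54 and 9.08 CPM in controls and at a lowest, median and highest of 6.4, 20.1 and 28.7 CPM at E1 (2.45, SE 0.56, adjusted p = 0.00703), with overlap, and was not called when this population was fitted alone (2.49, adjusted p = 0.0644). At E4 Fos differed by 1.64 (adjusted p = 0.104) and was called without control replicate 5, at 2.42. At Ech none of the 10 members was called in the standard edgeR fit, beside 1.31% of all genes. An unadjusted p under 0.05 was reached by 3 members, beside 4463 of all 23324 genes. They were Junb (34.5, 13.2, 17.2 and 26.5 CPM; 1.55, adjusted p = 0.101), Fos (16.1, 11.6, 2.52 and 17.9 CPM; 1.75, adjusted p = 0.117) and Egr1 (10.7, 45.5, 2.52 and 13.0 CPM; 2.73, adjusted p = 0.0648). DESeq2 called these 3, and edgeR without a filter on low counts called Junb and Egr1. Medians over the members, with genes at 0 in controls held at their bound, were 0.15, 0.63 and 0.66.

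Immune cell markers were also higher in hindbrain libraries of immunized mice. The sum of 15 myeloid markers averaged 81 CPM in GLAST-negative controls and 304, 375 and 330 CPM at E1, E4 and Ech, and 71.3 CPM in GLAST-positive controls and 193, 214 and 178 CPM at the stages. Of 7 T cell markers, summed at 1.07 and 1.14 CPM in controls, GLAST-negative libraries averaged 27.7, 31.1 and 8.66 CPM at E1, E4 and Ech and GLAST-positive ones 109, 141 and 28.1 CPM. At E1 the 3 GLAST-positive libraries with T cell sums of 101 to 382 CPM (replicates 2, 4 and 5) held 81.2 to 107 CPM of Junb, and the 3 with 0 to 10.8 CPM held 22.8 to 38.8 CPM, also above all controls. At E4, replicate 1 was the highest for the T cell sum, at 544 CPM, and for Junb, at 73.9 CPM, and the other 5 held 22.5 to 166 CPM of T cell markers and 46.2 to 49.3 CPM of Junb. In control GLAST-positive libraries Ptprc, Lyz2 and 5 of the 7 T cell markers were at 0. Astrocyte marker sums averaged 21273 to 27838 CPM over the 8 hindbrain groups. The part of these markers in the result was not tested.

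Spinal cord libraries, sorted as astrocytes but with more oligodendrocyte than astrocyte marker RNA on average in controls and at each stage, had the most members called, 3 at E1 (Fos, Junb, Atf3; 6.17% of all genes), and 5 at E4 and at Ech (Fos, Junb, Jun, Egr1, Atf3; 17.9% and 14.7%). Fos was at 1.49, 2.62, 7.45, 0.314 and 0.936 CPM in controls and at 31.6, 21.0, 30.0, 17.1 and 67.8 CPM at E1. The lowest, median and highest were 29.2, 32.4 and 142 CPM at E4 and 16.5, 37.4 and 81.6 CPM at Ech. No EAE library overlapped the controls at any stage. The log2 fold changes were 3.63 (SE 0.61, adjusted p = 1.72e-05), 4.33 (SE 0.61, adjusted p = 3.11e-08) and 4.03 (SE 0.60, adjusted p = 2e-07) at E1, E4 and Ech, and Fos had its highest mean of the 12 groups at E4 of spinal cord and its lowest in spinal cord controls.

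Junb gave a similar picture, from 7.44, 8.86, 4.01, 2.83 and 1.87 CPM in cord controls to 38.3, 115, 64.8, 41.4 and 102 CPM at E1. At E4 the lowest, median and highest were 53.7, 61.1 and 280 CPM, and at Ech 19.5, 41.6 and 112 CPM, again without overlap. Its log2 fold changes were 3.85 (SE 0.53, adjusted p = 1.97e-07), 4.30 (SE 0.53, adjusted p = 4.56e-10) and 3.29 (SE 0.51, adjusted p = 4.56e-07).

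Jun, which was abundant in cord controls already, changed less. It averaged 136 ± 56.2 CPM (SD, n = 5) in controls and was at 231, 226, 256, 213 and 381 CPM at E1, above every control, with a log2 fold change of 0.94 that missed the fold limit (adjusted p = 0.0122). At E4 it was 1.02 (SE 0.25, adjusted p = 0.00121), with 173, 279 and 381 CPM as lowest, median and highest, and at Ech 1.18 (SE 0.25, adjusted p = 0.000226), with 181, 296 and 439 CPM, both with overlap. The call at E4 was lost with a term for sheet range (0.79, adjusted p = 0.119) and without control replicate 1, 3 or 5 or E4 replicate 2 (0.89 to 0.95).

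Atf3 was at 0 in all 5 cord controls. It was at 3.24, 0, 1.58, 0 and 11 CPM at E1, at a lowest, median and highest of 0, 2.24 and 31.9 CPM at E4, and of 0.211, 2.62 and 21.9 CPM at Ech. Mean levels were at least 2.78-fold, 6.07-fold and 5.19-fold above the mean floor of the controls (adjusted p = 0.0254, 0.00282 and 0.0044), and much of each mean came from 1 library. At E1 the call was lost without E1 replicate 5 or any of control replicates 1, 2, 4 and 5.

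Egr1 was at 9.91, 0.328, 0, 1.88 and 7.49 CPM in cord controls and at 20.7, 11.4, 2.77, 15.4 and 28.1 CPM at E1 (log2 fold change 2.07, adjusted p = 0.0818, called without control replicate 1 at 2.79). At E4 the lowest, median and highest were 3.55, 20.2 and 97.5 CPM (3.01, SE 0.78, adjusted p = 0.00218), and at Ech 8.22, 27.7 and 78.5 CPM (3.19, SE 0.78, adjusted p = 0.00145). Both stages overlapped the controls through 1 low library each. Nr4a1, by contrast, was widely spread at E4, between 0.778 and 83.9 CPM with a median of 13.2, around controls of 4.96 to 14.3 CPM.

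For Dusp1, 1 library decided the call. Cord controls held 37.2, 23, 21.5, 14.1 and 23.4 CPM; at E4 the values were 1.69, 59.8, 5.97, 5.45, 10.0 and 3.11 CPM. All E4 libraries but replicate 2 lay below all controls. With it, the log2 fold change was -0.74 (adjusted p = 0.289), and without it -2.12 (adjusted p = 0.000284), which is a call. At Ech, with 6.00, 11.9 and 19 CPM as lowest, median and highest, the difference was -1.03 (SE 0.50, adjusted p = 0.133). Ergic1, which overlaps Dusp1, averaged 51.6 CPM in controls, 30.0 at E4 and 62.4 at Ech.

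**Figure D3:**
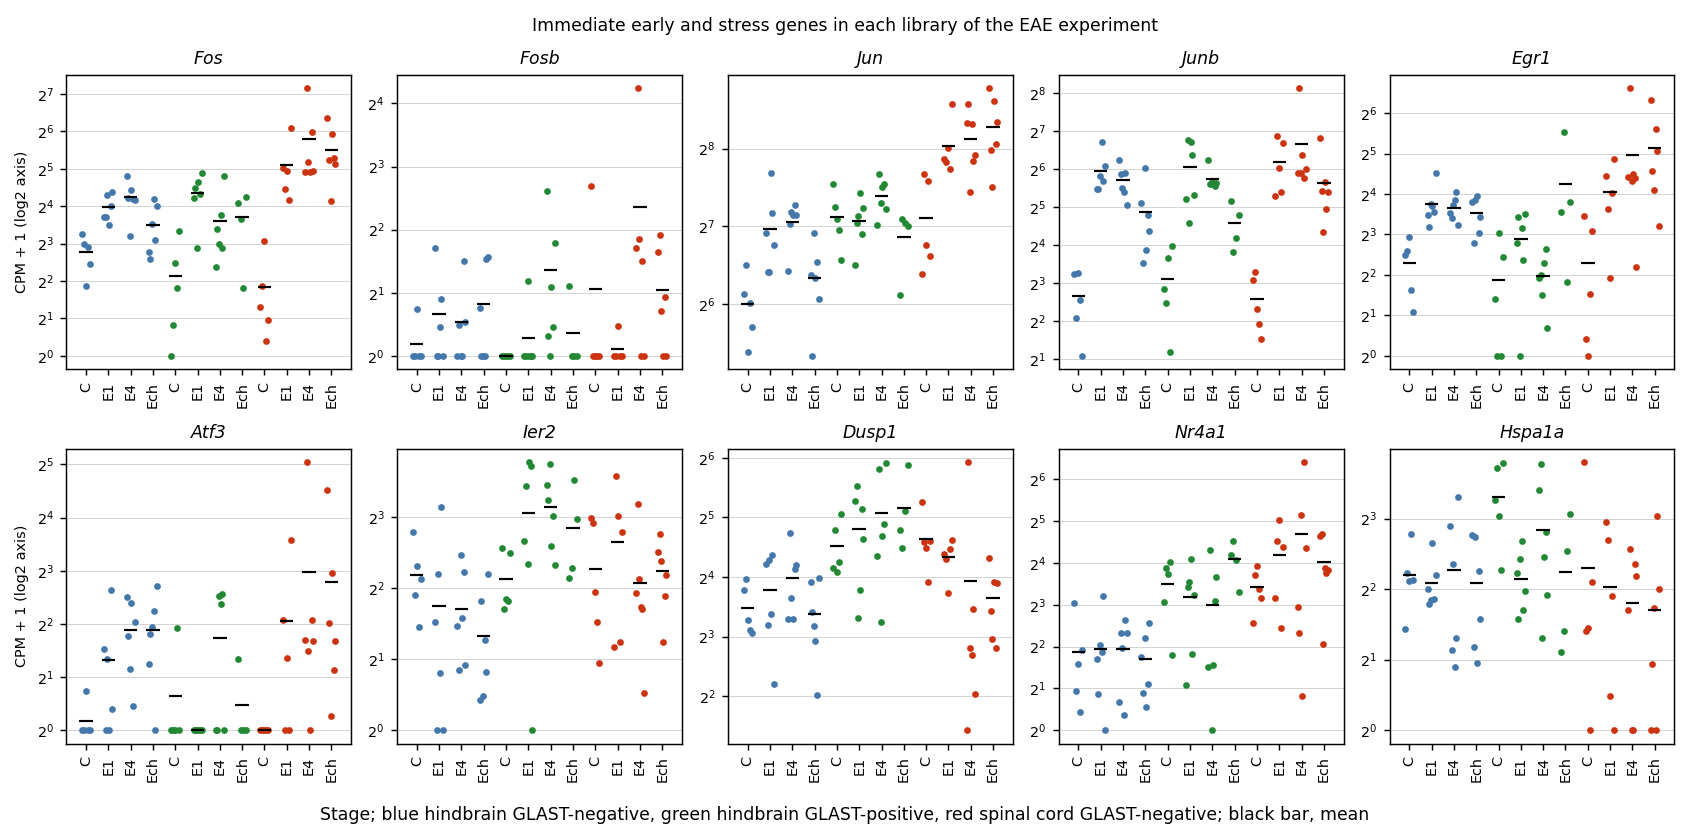
CPM of the 10 genes (log-scaled vertical axis, CPM + 1) in each of the 66 EAE libraries, with points for libraries and bars for group means in the 12 groups. Fos and Junb of spinal cord lay above all 5 controls at every stage, and 1 E4 spinal cord library stood highest for Junb, at 280 CPM.

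E4 spinal cord replicate 2 was the highest of its 6 libraries in 9 of the 10 members and held 5050 CPM of the myeloid markers, against 140 to 333 CPM in the other 5. Without it, Fos (3.77), Junb (3.65), Egr1 (2.17) and Atf3 (5.53, adjusted p = 0.0207) were still called at E4 and Jun (0.91) was not. Among Ech spinal cord libraries replicate 1 was the highest in 6 of 10 members, and the same 5 members were called without it. In spinal cord libraries of the high sheet range alone, Fos (3.66), Junb (3.88) and Atf3 were called at E1 and Fos (3.92), Junb (3.39), Jun (1.11), Egr1 (3.05) and Atf3 at Ech; at E4, where 1 library remained, Fos (3.69, adjusted p = 0.000675) and Junb (3.56, adjusted p = 6.92e-05) were, with the lone library assumed to vary like the others.

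The make-up of the cord libraries changed at the same time. Astrocyte marker sums averaged 16502 CPM in controls and 9961, 3234 and 4960 CPM at E1, E4 and Ech, Atp1b2 averaged 6598 CPM in controls and 3492, 357 and 456 CPM at the stages, and the cord Hox sum 397 CPM in controls and 152, 56.2 and 156 CPM at the stages. Oligodendrocyte marker sums averaged 22087 CPM in controls and 41800, 53354 and 32622 CPM at the stages. T cell marker sums averaged 1.46 CPM in controls and 13.7, 25 and 7.07 CPM at E1, E4 and Ech, and OPC marker sums 476, 536, 557 and 1529 CPM in the same order. Myeloid sums were 14.4 to 51.6 CPM in controls, 57.7 to 201 at E1 and 74.8 to 207 at Ech. At E1, replicate 2 held 22252 CPM of the astrocyte markers, against 4317 to 9917 CPM in the other 4, and held 21.0 CPM of Fos and 115 CPM of Junb, both above every control. The part of these changes in the members' values was not tested.

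**Figure D4:**
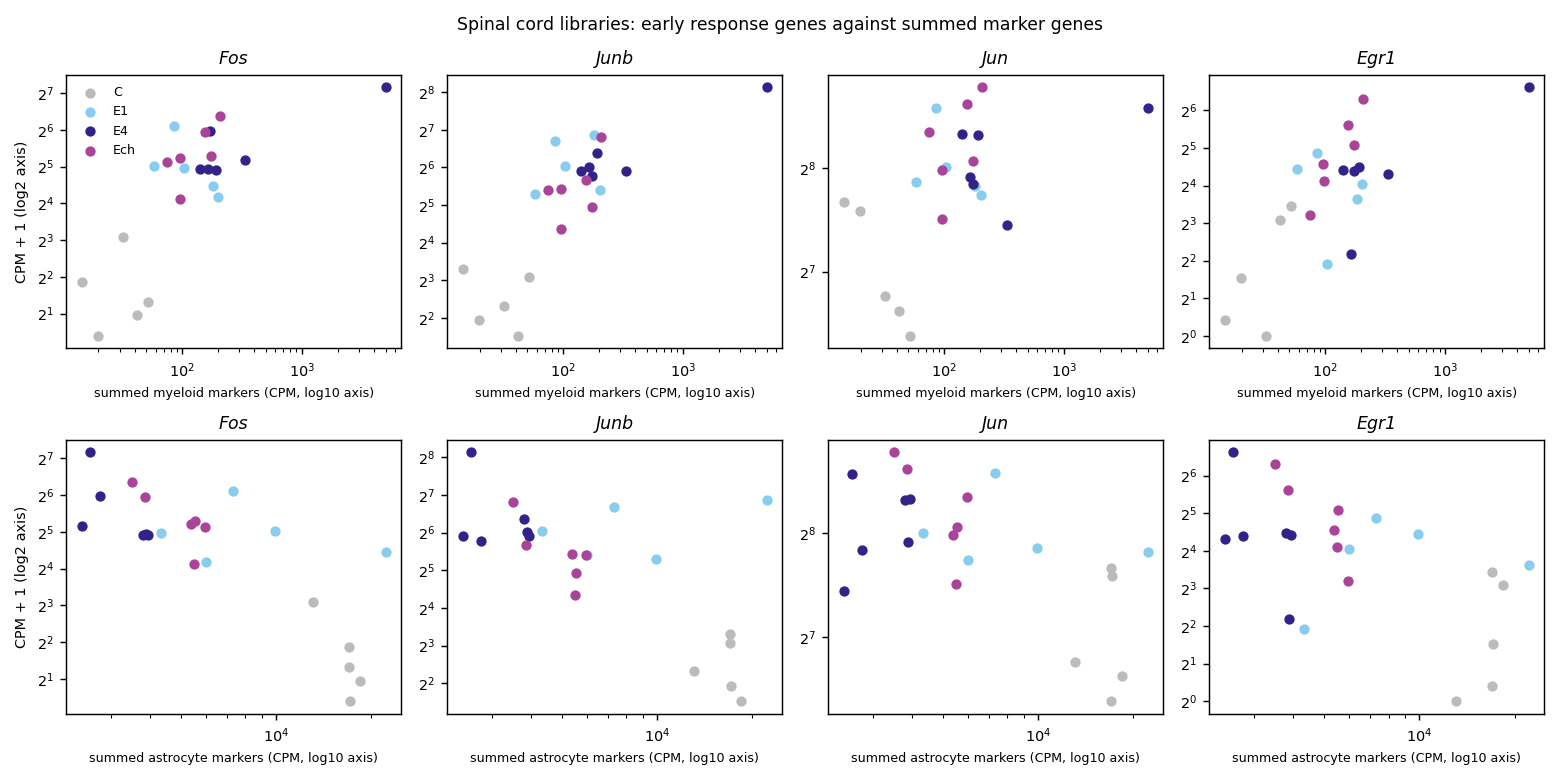
Fos and Junb against the summed CPM of astrocyte and myeloid markers in the 22 spinal cord libraries of the EAE experiment, with points coloured by stage and logarithmic axes. The E1 library with 22252 CPM of astrocyte markers lay above the controls in both genes, and the E4 library with 5050 CPM of myeloid markers was the highest in both.

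Whether the response differed between populations was tested as a difference of log2 fold changes. For spinal cord against GLAST-negative hindbrain, Fos rose more in cord at E4 (difference 2.74, SE 0.78, adjusted p = 0.0151; 7.92% of all genes called) and at Ech (3.25, SE 0.79, adjusted p = 0.00319; 6.80%), and the other 9 members were not called. At E1 none of the 10 was called (Fos 2.32, adjusted p = 0.185; 0.214%). The Fos difference at E4 was 2.19 without E4 replicate 2 (adjusted p = 0.0596) and 2.51 with the sheet term (adjusted p = 0.116), and in neither was it called; Dusp1 was called there without replicate 2, at -2.65 (adjusted p = 0.00241). At Ech, Fos was called without Ech replicate 1 (2.98) and with the sheet term (3.16). With the title numbers as a block, Fos was called at both, at 3.24 and 3.72. Junb, called in both populations, differed between them by 0.33, 1.02 and 0.88 (log2) at E1, E4 and Ech, without a call. Between GLAST-positive and GLAST-negative hindbrain no member was called at any stage, beside 0.00857%, 0.00857% and 0.0600% of all genes. At an unadjusted p under 0.05 there were 2 members at E1 (Jun and Atf3), 1 at E4 (Jun) and 1 at Ech (Atf3). Of all 23324 genes, 2083, 2091 and 2618 lay under that limit at E1, E4 and Ech.

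The other early response genes in cord were led by Socs3, the feedback inhibitor of cytokine signalling through STAT3, with log2 fold changes of 6.92, 5.66 and 6.27 at E1, E4 and Ech. Of 28 tested, 4 were called higher at E1, 7 higher and 2 lower at E4, and 6 higher at Ech, beside 2.50%, 6.80% and 5.16% of all genes called higher and 3.68%, 11.1% and 9.57% called lower at these stages; among them were Gadd45b (3.78 and 4.02 at E1 and Ech), Klf4 (4.76) and Ier3 (4.51) at E4. The AP-1 gene Fosl2 was called at all 3 stages of cord (3.32, 3.98 and 3.36), alone of 9 other AP-1 genes at E1 and Ech and as 1 of 5 called of the 9 at E4, with Jdp2 (1.52) and Jund (1.01) among these. Heat shock genes were called in 3, 3 and 4 of 21 as higher, the endoplasmic reticulum chaperone Hspa5 (1.30 and 1.03 at E1 and E4) and the mitochondrial chaperone Hspd1 (1.42 and 1.57 at E4 and Ech) among them, and 0, 1 and 1 as lower. Of the phosphatases, Dusp6 was called lower at E4 (-2.84) and Ech (-1.50) and none of 9 higher. Of 6 other EGR and NR4A genes, 1 was called in cord at E4, Nr4a2 (4.37, mean 5.59 CPM), and 0 at E1 and Ech. List medians in cord at E4, with bounds, were 2.06 for other AP-1 genes and 1.34 for other EGR and NR4A genes. They were 0.67 for early response genes, 0.49 for heat shock genes, 0.23 for phosphatases and 0.16 for upstream regulators, beside 0.00 for all genes.

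In hindbrain, where 0.193% to 2.03% of all genes were called, against 6.17% to 17.9% in cord, the lists also gave fewer calls. Socs3 (4.08 and 3.87) and Ier3 (2.53 and 2.30) were the early response genes called in GLAST-negative cells at E1 and E4. In GLAST-positive cells 4 of 28 were called at E1, Klf4 (4.07), Socs3 (2.88) and Nfkbia (1.39) the largest, 2 at E4, Klf4 (4.14) and Nfkbia (1.11), and 1 at Ech. Klf4 encodes a zinc finger factor and Nfkbia the inhibitor of NF-kappa B. Dusp2 (5.45) was called in GLAST-positive cells at E4, and 1 heat shock gene in GLAST-negative cells at E1.

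Within groups, members went up and down together only in part. After removal of group means over the 66 EAE libraries (log2 of CPM + 1, 9 members against Fos), Pearson's r with Fos was 0.41 for Dusp1 (adjusted permutation p = 0.0068; Spearman's rho 0.35, adjusted p = 0.023), 0.41 for Atf3 (0.0068; rho 0.41, 0.012), 0.40 for Junb (0.013; rho 0.35, 0.023) and 0.36 for Egr1 (0.049; rho 0.37, 0.023). The other 5 did not pass: Fosb 0.12, Nr4a1 0.10, Jun 0.07, Ier2 0.00 and Hspa1a -0.13. Without the 2 libraries farthest from the median of Fos, the 4 correlations were 0.44, 0.42, 0.42 and 0.32. In the low sheet range (31 libraries) they were 0.48, 0.60, 0.31 and 0.48, and in the high range (35 libraries) 0.42, 0.32, 0.46 and 0.31. Over all 45 pairs of members r ran from -0.23 to 0.43 with a median of 0.16; these pairs share libraries, depth and group sizes and are given as a description.

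**Figure D5:**
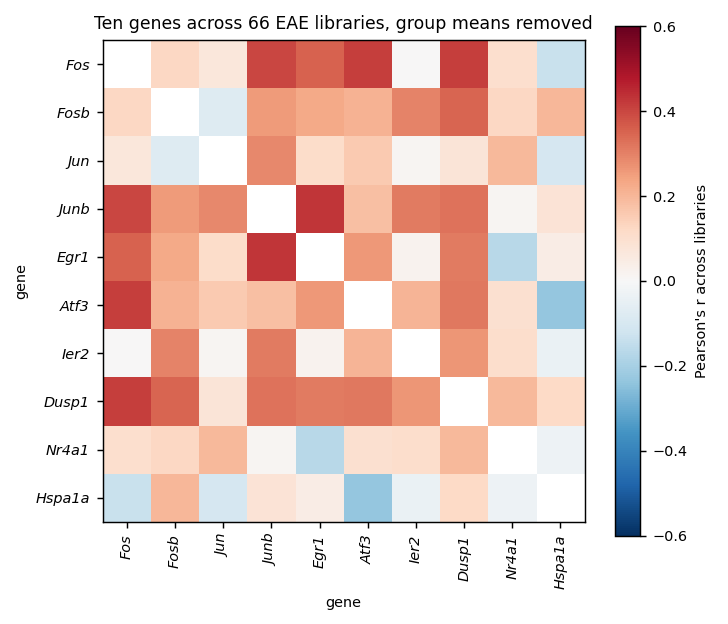
Pearson's r between each pair of the 10 genes over the 66 EAE libraries after removal of group means, as a colour scale. The highest value was 0.43, for Junb with Egr1, and the lowest -0.23, for Atf3 with Hspa1a.

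The genes whose pattern was most like the mean of the members, over the same 66 libraries with group means removed, were Cd44 (r = 0.65), Itgam (0.63), Plac8 (0.62), Maf (0.62), Srgn (0.61), Sdcbp (0.60), Diaph1 (0.59), Il1rn (0.58), Mcl1 (0.58) and Chil3 (0.58), of 10966 genes compared. Itgam encodes CD11B, the antigen excluded by the sort. Without E4 spinal cord replicate 2 and Ech spinal cord replicate 1, r was 0.58 for Cd44, 0.57 for Mcl1, 0.42 for Itgam and 0.37 for Chil3. These values share library depth with the members' own and are a description.

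The members differed in how far replicates scattered. The biological coefficient of variation estimated by edgeR across the EAE libraries was 0.29 for Jun, 0.49 for Junb, 0.55 for Fos and Dusp1, 0.73 for Ier2, 0.75 for Egr1, 0.81 for Nr4a1, 0.85 for Hspa1a, 1.47 for Atf3 and 1.88 for Fosb, beside a median of 1.01 over all genes tested. The same order held at its ends in the isolated FVB/N libraries, with 0.29 for Jun and 1.60 for Fosb, beside a median of 0.63. Levels differed as well. In the EAE fit the average log2 CPM was 7.36 for Jun and 0.66 for Fosb, beside a median of 2.16 over all genes tested. Members were not set against genes of like level.

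Across the experiments, which were sequenced and counted apart and allow no test between them, Fos averaged 2.56 to 5.83 CPM in the 3 control groups of C57BL/6 mice and 3.13 to 52.8 CPM in the 5 FVB/N populations. Nr4a1 averaged 2.66 to 10.2 CPM against 3.92 to 69.3 CPM, Junb 5.00 to 7.68 CPM against 13.3 to 21.7 CPM, and Jun 62.6 to 138 CPM against 33.9 to 156 CPM. Strain and experiment differed between these sets of libraries and cannot be told apart.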

How the data were processed

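The authors made QuantSeq 3′ libraries (single reads of 50 bases), trimmed bases of low quality, aligned the reads to GRCm38 (Ensembl 82) with HISAT 0.1.5, sorted them with SAMtools and counted reads per gene with HTSeq 0.6.1p1 in union mode, and the deposited values are these raw counts, without normalization or pooling of replicates. Whether strand was used in counting is not given in the sources used here. Every deposited column was matched to a sample (0 unmatched), and 0 pairs of columns were identical.

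Counts were tested here by quasi-likelihood, two-sided and after TMM scaling (edgeR 4.0.16, R 4.3.3), on genes with at least 10 counts in total. A gene was called when its Benjamini-Hochberg adjusted p over all genes of the fit was under 0.05 and its log2 fold change above 1 or below -1. All 66 EAE libraries entered a fit of 23324 genes, the 18 subtype libraries a fit of 17126 genes, for cultured cells against the mean of the 5 isolated groups, and the 15 isolated libraries a fit of 14957 genes. Groups and replicate numbers were taken from the sample labels. The members, gene lists, tests and alternatives were chosen with earlier results of these data known. Named were all members, of each other list at most the 3 called genes of largest change whose mean reached 5 CPM, and the 10 genes most like the members. Correlations used log2(CPM + 1) with 100000 permutations within groups. Fitted folds against a group at 0 depend on the prior count, so bounds against a floor of 3 counts per library, averaged over the group, were used. Each SE was derived from the log2 fold change and its quasi-likelihood F value, and so takes in the spread between libraries. Floors cover counting error only. On simulated data, genes changed by 2 on the log2 scale were recovered in 75% (E4 spinal cord), 74% (culture) and 46% (any difference among isolated populations), and of all calls 3.43%, 12.2% and 6.67% were of unchanged genes. In each simulation 100 genes were changed by 2 and 100 by 3, and all others were unchanged, unlike in the real comparisons. Changed genes had a mean of at least 5 CPM, so recovery of members below that level was not measured. Alternatives were DESeq2 1.42.0, DESeq2 size factors in edgeR, library totals, filterByExpr, no filter, the replicate number as a block, a term for sheet range and leaving out each library, the last with the dispersion trend of the full fit; spinal cord libraries of the high sheet range alone, title numbers as a block and fits of single populations were added after the data were seen. Promoters and gene starts are from RefSeq (GRCm38.p6): 8 of the 10 members are used, and those of Ier2 and Egr1 are not shown. Names in the supplementary table were matched to the labels by its values, which are not printed.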

Additional observations from a re-analysis of the deposited data

Results flagged for a closer look

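In 117 sets of libraries (a member within a group of 4 to 6), 16 held a library set apart from the rest of its group by a gap that is large for the group's range. The limit used is meant to flag about 1 set in 20 by chance; this was not measured here, and it need not hold for sets with libraries at or near 0. Junb was highest in E4 spinal cord replicate 2, at 280 CPM, and in E4 GLAST-positive hindbrain replicate 1, at 73.9 CPM; the titles of these libraries share a number. Jun was lowest in E4 GLAST-negative hindbrain replicate 1, at 84.6 CPM, and in Ech GLAST-positive hindbrain replicate 1, at 68.2 CPM. E1 GLAST-positive hindbrain replicate 3 was the lowest of its group for Fos, at 6.4 CPM, and for Egr1, at 0. Nr4a1 was lowest in Ech spinal cord replicate 3, at 3.17 CPM.

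The other 9 concern Fosb and Atf3, mostly a library with counts among libraries at 0. Fosb was apart in control spinal cord replicate 1 (5.45 CPM), E4 GLAST-negative hindbrain replicate 5 (1.85 CPM), E1 GLAST-positive hindbrain replicate 3 (1.28 CPM), Ech GLAST-positive hindbrain replicate 1 (1.15 CPM), control GLAST-negative hindbrain replicate 3 (0.666 CPM) and E1 spinal cord replicate 3 (0.395 CPM). Atf3 was apart in control GLAST-positive hindbrain replicate 4 (2.79 CPM), Ech GLAST-positive hindbrain replicate 1 (1.53 CPM) and control GLAST-negative hindbrain replicate 3 (0.666 CPM).

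The Fos response was larger in spinal cord than in GLAST-negative hindbrain by the test of the difference itself, at E4 by 2.74 and at Ech by 3.25 on the log2 scale. Without E4 spinal cord replicate 2 the E4 difference was 2.19 (edgeR, adjusted p = 0.0596) and not called, and Dusp1 was called in its place, with a difference of -2.65 (adjusted p = 0.00241).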

How the results depend on the processing

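No result for a member called in the standard fit or in any alternative changed direction in the settings run. In culture, 5 members called in the standard fit became 3 with DESeq2 size factors, 2 with filterByExpr and 3 with DESeq2; Jun and Hspa1a were lost in each of these, and the cause was not tested. The median difference over all genes in culture moved from 0.43 to 0.32, 0.086 and 0.21 in the same order, and with library totals to 0.59. DESeq2 called 2 members in GLAST-positive hindbrain at E4 (standard 1) and 3 at Ech (standard 0, and 2 without a filter). With the sheet term the difference in response at E4 kept 0 members (standard 1), and spinal cord at E4 in the high sheet range kept 2 (standard 5), with 1 library left. By the names in the supplementary table, 1 member was called for forebrain GLAST-positive (2 by label) and 3 for spinal cord (1 by label). With a floor of 10 counts in place of 3, 3 members in place of 7 were seen in some library of each isolated group.

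Leaving out each library in turn, culture held 3 to 6 members (5), any difference among populations 2 to 3 (3), control GLAST-positive hindbrain 1 to 2 (1) and control spinal cord 0 to 1 (1). GLAST-negative hindbrain held 1 to 2 at E1 and at E4 and 0 to 1 at Ech, and GLAST-positive 2 at E1, 1 to 2 at E4 and 0 to 1 at Ech. Spinal cord held 2 to 4 at E1, 4 to 5 at E4 and 5 at Ech; its response differed from GLAST-negative hindbrain in 0, 1 and 1, and that of GLAST-positive hindbrain in 0 at each stage. Nr4a1 was called in control GLAST-positive hindbrain without GLAST-negative control replicate 1 (2.80).

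The replicate number as a block changed no member's call: the counts with the replicate block were 5 in culture, 3 among populations, and 3, 5 and 5 in spinal cord at E1, E4 and Ech. Libraries of the same replicate number correlated, after removal of group means, at -0.0044 on average in the EAE table and -0.012 in the subtype table, and 13 of 66 and 0 of 18 correlated best with their own number, so that these numbers were not taken to pair libraries. Of 49 pairs that share a title number, 8 correlated above 0.1 (mean 0.034, against -0.0049 for 314 other pairs of a stage). With title numbers as a block, 0 members in place of 1 were called in control spinal cord, and no other count of members between populations changed. With single populations fitted, 3 and 4 members were called in GLAST-negative hindbrain at E1 and E4 in place of 1 and 2, and 1 in place of 2 in GLAST-positive hindbrain at E1; the other 6 counts stayed as they were.

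Counts over all genes moved by more than 1.5 times in these settings. Spinal cord at E4 went from 4184 to 2106 with the sheet term and 1471 in the high range, and its difference in response to that of GLAST-negative hindbrain from 1848 to 787 with the sheet term. The same difference at E1 went from 50 to 81 with filterByExpr, 115 without a filter and 242 with DESeq2. Culture went from 5424 to 3614 with filterByExpr. GLAST-negative hindbrain went from 150 to 239 without a filter and 238 with DESeq2 at E1, and from 45 to 97 and 92 at Ech. GLAST-positive hindbrain went from 347 to 567 with DESeq2 at E1, and from 306 to 480 without a filter and 678 with DESeq2 at Ech. Its difference in response to GLAST-negative hindbrain, 2, 2 and 14 at E1, E4 and Ech, became 9, 10 and 50 without a filter and 17, 16 and 56 with DESeq2, and 8 at Ech with the replicate block. Title numbers as a block gave 136, 106 and 248, and 403 for spinal cord at E1. With single populations fitted, GLAST-negative hindbrain had 409, 390 and 157 (standard 150, 170 and 45), GLAST-positive 227, 285 and 147 (standard 347, 474 and 306) and spinal cord at E1 947 (standard 1440).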
